A study of Bos taurus with 40 samples.

Results

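MX1, MX2, ISG15 and RSAD2 are interferon-stimulated genes, and their transcript abundance was examined in the liver of RES and ADLIB bulls. They were chosen by identifier, as ENSBTAG00000030913 (MX1), ENSBTAG00000008471 (MX2), ENSBTAG00000014707 (ISG15) and ENSBTAG00000016061 (RSAD2), and are 4 of the 24616 genes counted. The count tables give identifiers without symbols, so each symbol is the one named with its identifier in that choice. All 4 genes had 4 or more reads in each animal and entered every comparison.

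Type I and type III interferons bind receptors on the cell surface, and the signal that follows switches on a large set of genes. These genes are expressed at a low level in many resting tissues, rise together in cells that sense interferon, and are widely used as a readout of that signal. Hepatocytes and the resident macrophages of the liver can both respond to interferon. MX1 and MX2 code for dynamin-like GTPases that restrict viruses, and they lie next to each other on bovine chromosome 1 in the ARS-UCD2.0 assembly, with 0 protein-coding genes between them. ISG15 codes for a ubiquitin-like protein that is joined to other proteins, and RSAD2 codes for viperin, a radical SAM enzyme of the endoplasmic reticulum that makes an antiviral nucleotide.

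The study asked how dietary restriction and re-alimentation, the return to free access to feed, alter hepatic gene expression in cattle. Liver RNA of 40 Holstein Friesian bulls was sequenced, with 10 bulls in each of 4 groups. RES bulls received a restricted feed allowance for the 125 days of Period 1 and then feed ad libitum for the 55 days of Period 2, and ADLIB bulls had ad libitum access throughout. Liver was sampled on day 125 of Period 1 or on day 55 of Period 2, and every bull received the same diet of 70% concentrate and 30% grass silage. The bulls were males of a single breed, so these groups hold no females and no other breed. The labels describe biopsies of 20 bulls and the methods describe different bulls slaughtered at each time, and bulls of the 2 periods were treated here as different animals. The liver label was not checked against marker genes, which would need symbols for the identifiers.

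Each animal had between 8656866 and 15520237 reads on genes, which were 73.0% to 80.6% of the reads in its table. Per animal, MX1 had 51 to 1505 reads, MX2 7 to 170, ISG15 29 to 720 and RSAD2 112 to 288. MX2 was thus the member with the widest counting error, and 1 animal had 10 or fewer MX2 reads. Levels are given as normalised CPM (read counts scaled to a common library size), on TMM effective library sizes of all 40 animals. They were not divided by transcript length, so levels are compared between animals and groups and not between genes. In whole liver, a change in the share of cells that express a gene and a change in RNA per cell cannot be told apart.

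MX1 had overlapping levels in all 4 groups. In ADLIB at Period 1 it ranged from 11.9 to 61.4 normalised CPM with a median of 35.7, and in RES from 9.73 to 57.0 with a median of 31.8. At Period 2 the range was 7.68 to 60.6 with a median of 36.4 in ADLIB. In RES at Period 2 it was 4.85 to 152 with a median of 51.4. RES at Period 2 therefore held both the lowest and the highest MX1 level among the 40 animals. By median the order from low to high was RES at Period 1, ADLIB at Period 1, ADLIB at Period 2 and RES at Period 2, and none of the tests between groups separated them.

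MX2 had its 2 higher medians in RES. ADLIB bulls at Period 1 ranged from 0.820 to 3.73 normalised CPM with a median of 2.39, and RES bulls from 1.60 to 7.77 with a median of 3.46. At Period 2, ADLIB ranged from 1.36 to 3.52 with a median of 1.91. RES at Period 2 ranged from 1.52 to 14.6 with a median of 3.63. In each period 5 of 10 RES animals lay above the highest ADLIB animal, and the remaining RES animals lay within the ADLIB range. MX1 and MX2 are related in sequence. Only uniquely mapped reads were counted, so a read that matched both genes equally well would count for neither. How many such reads there were was not tested.

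ISG15 overlapped between groups in the same way, with its upper values in RES. At Period 1 the range was 5.71 to 14.8 normalised CPM with a median of 8.16 in ADLIB, and 5.09 to 27.5 with a median of 10.3 in RES. The ADLIB range at Period 2 was 2.56 to 16.3 with a median of 7.69. In RES at Period 2 it was 2.70 to 68.7 with a median of 12.6. The RES animals of Period 2 spanned the ranges of both groups of Period 1, and 4 of 10 RES animals exceeded the highest ADLIB animal in each period.

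RSAD2 varied least between animals of the 4 genes. Its levels at Period 1 were 12.8 to 18.8 normalised CPM with a median of 15.9 in ADLIB, and 13.2 to 23.8 with a median of 17.5 in RES. The ADLIB range at Period 2 was 11.3 to 20.1 with a median of 16.8. In RES at Period 2 it was 11.4 to 27.9 with a median of 15.9. The medians of the 4 groups lay close together, and the highest animals were again in RES at Period 2.

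**Figure D1:**
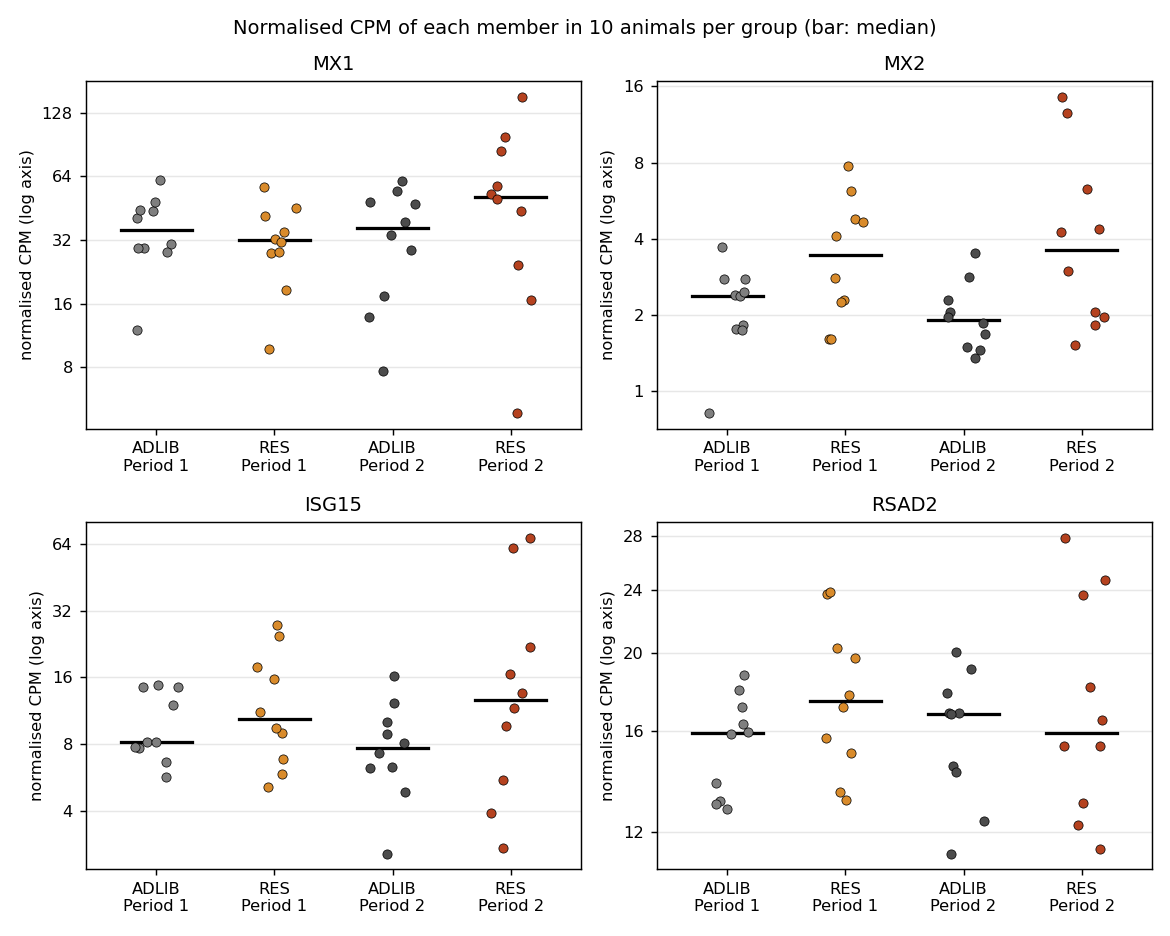
Normalised CPM (log axis) of MX1, MX2, ISG15 and RSAD2 in each of 10 animals per group, with a bar at the group median. The points of RES at Period 2 reach from 4.85 to 152 for MX1 and from 2.70 to 68.7 for ISG15, while the groups overlap in every panel.

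At the end of Period 1, the comparison of RES with ADLIB asked what restricted feeding changed. None of the 4 genes was a DEG (0 of 4, edgeR quasi-likelihood test, called at an FDR under 0.05 with a log2 fold change of 0.32 or more in either direction), where 10.3% of 12047 genes tested were called. At an unadjusted p under 0.05, 1 of the 4 genes passed, against 27.7% of all genes. That gene was MX2, with a log2 fold change of 0.74 ± 0.28 (SE), which is 1.67-fold, and an FDR of 0.0834. It fell below the FDR threshold when RES animal 2 or RES animal 10 was left out, with FDR values of 0.0386 and 0.0488, in a range of 0.0386 to 0.181 over the 20 animals left out in turn. The other genes were further from the threshold, at log2 fold changes of 0.42 ± 0.29 for ISG15 (FDR 0.373), 0.21 ± 0.11 for RSAD2 (FDR 0.243) and -0.17 ± 0.26 for MX1 (FDR 0.708). The median over the 4 genes was 0.31, beside 0.02 over all genes tested. The mean percentage of reads on genes differed by diet at Period 1, at 78.1% in ADLIB and 75.8% in RES. With it as a covariate, the log2 fold changes were 0.56 for MX2 (FDR 0.431), 0.14 for ISG15, 0.32 for RSAD2 and -0.30 for MX1. With a block for the number that opens the library name, ISG15 was at 0.69 (FDR 0.113) and MX2 at 0.77 (FDR 0.105).

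At day 55 of Period 2, RES bulls had been returned to feed ad libitum, and the same comparison asked what differed during re-alimentation. None of the 4 genes was called (0 of 4), and the test called 0% of 12202 genes, the smallest FDR of any gene being 0.190. At an unadjusted p under 0.05, 2 of the 4 genes passed, both higher in RES, against 12.8% of all genes and 7.12% in that direction. MX2 was 2.55-fold higher, with a log2 fold change of 1.35 ± 0.39 (95% interval 0.54 to 2.16), an unadjusted p of 0.00224 and an FDR of 0.221. ISG15 was 2.61-fold higher, at 1.38 ± 0.52 (95% interval 0.30 to 2.47), with an unadjusted p of 0.0153 and an FDR of 0.295. These p-values ranked near the lowest, with 0.983% of genes having a smaller p than MX2 and 5.17% a smaller p than ISG15. MX1 had a log2 fold change of 0.75 ± 0.46 (FDR 0.507) and RSAD2 of 0.17 ± 0.15 (FDR 0.674). The median of the 4 genes was 1.05, beside 0.01 over all genes.

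The call on MX2 at Period 2 depended on the test used. DESeq2 gave it an FDR of 0.0455 and edgeR's exact test 0.0385, so that each called 1 of the 4 genes, while limma voom and the quasi-likelihood test called 0. Of the 12202 genes, DESeq2 called 52, the exact test 53 and limma voom 0, and the FDR of MX2 ranged from 0.0385 to 0.381 over all settings tried. On mean log2 CPM, which gives less weight to a few high animals, RES exceeded ADLIB by 0.93 for MX2 (permutation test, unadjusted p = 0.0193, 7 of 10 RES animals above the ADLIB mean). The same difference was 0.80 for ISG15 (p = 0.154), 0.50 for MX1 (p = 0.376) and 0.11 for RSAD2 (p = 0.493), all by permutation of the 20 animals. Without RES animals 7 and 8, the quasi-likelihood log2 fold changes became 0.63 for MX2, 0.37 for ISG15, 0.32 for MX1 and -0.01 for RSAD2. The size of the Period 2 differences thus rested in large part on 2 of 10 RES animals, which were left out after their values had been seen.

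The diet by period interaction asked whether the RES to ADLIB difference changed from Period 1 to Period 2. It called 9.45% of 11868 genes at an FDR under 0.05, and 0 of the 4 genes were among them, with 0 at an unadjusted p under 0.05 beside 24.6% of all genes. The estimates were 0.95 ± 0.61 on the log2 scale for ISG15 (FDR 0.347), 0.90 ± 0.54 for MX1 (FDR 0.309), 0.59 ± 0.50 for MX2 (FDR 0.494) and -0.06 ± 0.20 for RSAD2 (FDR 0.886). Without RES animals 7 and 8 of Period 2 the sign turned for ISG15 (-0.07) and MX2 (-0.14). A larger difference in Period 2 than in Period 1 was therefore not shown for any of these genes.

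Within a feeding group, the 2 periods were compared across different animals. In RES, 20.3% of 12101 genes were called and 0 of the 4 genes were, with 0 at an unadjusted p under 0.05 beside 37.3% of all genes. MX1 came closest, with a log2 fold change of 0.84 ± 0.42 from Period 1 to Period 2 (FDR 0.147), and it was called when RES animal 6 of Period 2, its lowest animal, was left out (FDR 0.0493, in a range of 0.0493 to 0.304 over single animals left out). ISG15 was at 0.69 ± 0.53 (FDR 0.358), MX2 at 0.45 ± 0.42 (FDR 0.451) and RSAD2 at -0.01 ± 0.16 (FDR 0.972). In ADLIB, 1.97% of 12102 genes were called and 0 of the 4 genes were, again with 0 at an unadjusted p under 0.05 beside 18.7%. The ADLIB estimates were small, between -0.27 for ISG15 and 0.05 for RSAD2. Age, season and stage of the trial changed together between the periods, so their parts cannot be told apart in these 2 comparisons.

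**Figure D2:**
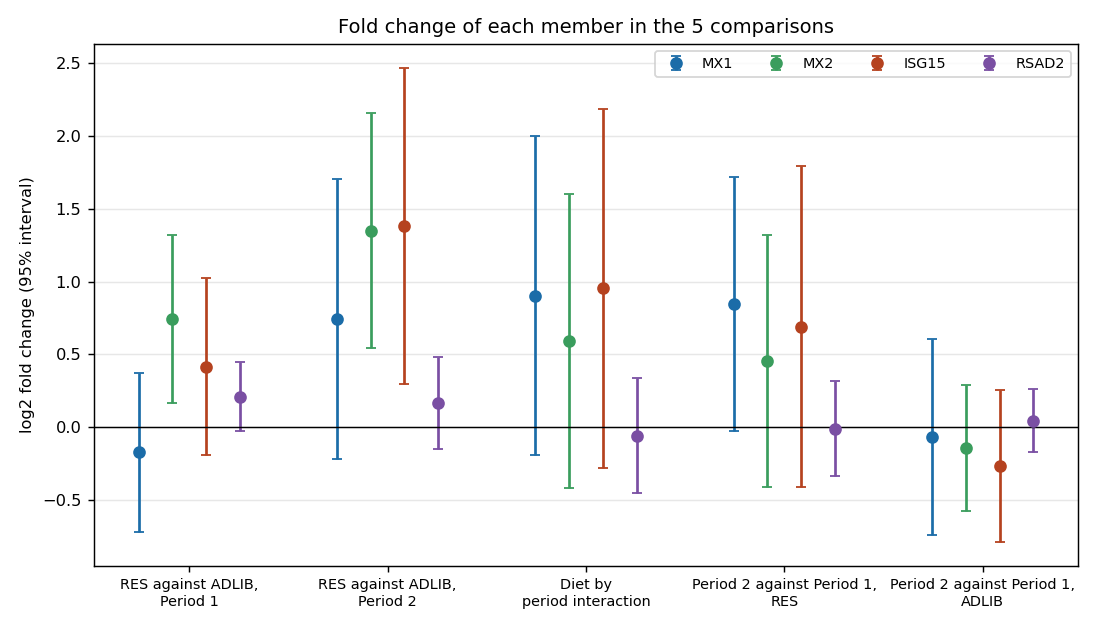
Log2 fold change with its 95% interval (edgeR quasi-likelihood test) of MX1, MX2, ISG15 and RSAD2 in the 5 comparisons. The intervals of MX2 in both RES against ADLIB comparisons and of ISG15 at Period 2 lie above 0 before adjustment, none of the 4 genes passed the FDR threshold, and RSAD2 has the narrowest intervals.

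With the 4 groups fitted together, MX1, MX2 and ISG15 differed between animals of a group far more than most hepatic genes did. Their biological coefficient of variation, the spread that edgeR attributes to animals beyond counting error, was 57.9% for MX1, 50.5% for MX2 and 63.7% for ISG15, beside a median of 18.4% over 11868 genes. Fewer than 2 in 100 genes were more variable, namely 0.977%, 1.95% and 0.632% of genes. RSAD2 was at 20.8%, with 38.2% of genes more variable. Within single groups the ranks differed. By SD of log2 CPM in ADLIB, 8.01% of genes exceeded MX2, 9.95% ISG15 and 3.65% MX1 at Period 1. At Period 2 these shares in ADLIB were 22.2%, 2.81% and 0.809%.

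The spread was widest in RES at Period 2. There the highest animal exceeded the lowest 31.4-fold for MX1, 25.4-fold for ISG15, 9.56-fold for MX2 and 2.44-fold for RSAD2. The SD of log2 CPM was 1.42 for MX1, 1.52 for ISG15, 1.11 for MX2 and 0.44 for RSAD2, beside a median of 0.28 over all genes in that group. In ADLIB at Period 2 the same SDs were 0.97, 0.72, 0.40 and 0.27. Without RES animals 7 and 8 the SDs of RES at Period 2 were 1.35 for MX1, 1.03 for ISG15, 0.69 for MX2 and 0.33 for RSAD2, and that of MX2 was then below its SD of 0.76 in RES at Period 1. Of the summed squared deviations from the group means over all 40 animals, RES at Period 2 held 52.0% for MX1, 54.5% for MX2, 61.1% for ISG15 and 48.7% for RSAD2. All 4 SDs were higher in RES than in ADLIB in both periods, but 0 of 16 differences in SD passed after adjustment over those 16 tests. The nearest was MX2 at Period 2, with an SD higher by 0.70 in RES (permutation test, p = 0.00788, adjusted p = 0.126).

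**Figure D3:**
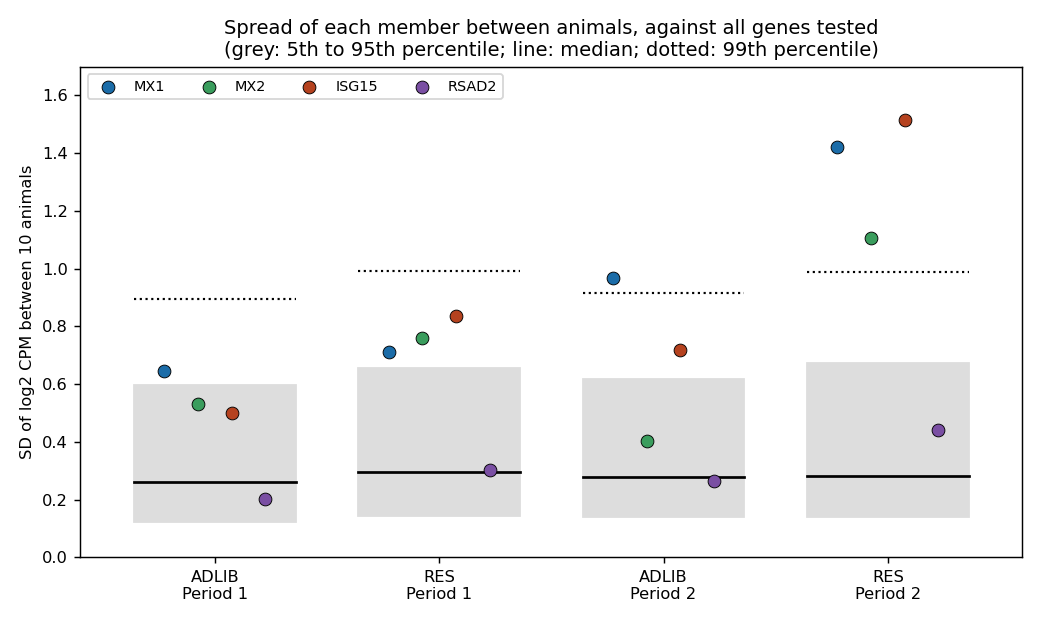
SD of log2 CPM between the 10 animals of each group for the 4 genes (points), over the 5th to 95th percentile (grey), median (line) and 99th percentile (dotted line) of 11868 genes. In RES at Period 2 the SDs of MX1, MX2 and ISG15 (1.42, 1.11 and 1.52) lie above the 99th percentile of 0.99, and RSAD2 (0.44) lies within the grey band.

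The 4 genes varied together between animals in RES at Period 2. Pearson's r of log2 CPM across its 10 animals was between 0.80 and 0.96 for the 6 pairs, with a median of 0.86. All 6 pairs passed an adjusted p of 0.05 over the 24 pairs tested within groups (permutation test, two-sided), and all 6 did so by Spearman's rho. In that group 0.592% of all pairs of genes had an r of 0.80 or more. The closest pair was MX2 and ISG15, at r = 0.96 (permutation p = 5e-05, adjusted p = 0.0012) and rho = 0.95 (permutation p = 0.00013). RSAD2, whose levels spanned a narrow range, ranked the animals much as MX1 did, at r = 0.87 (permutation p = 0.00061) and rho = 0.98 (permutation p = 6e-05).

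The remaining pairs in RES at Period 2 gave r = 0.89 and rho = 0.83 for MX2 and RSAD2 (permutation p = 0.00084 and 0.00487), and r = 0.86 and rho = 0.88 for ISG15 and RSAD2 (permutation p = 0.0016 and 0.00162). MX1 and ISG15 had r = 0.83 and rho = 0.92 (permutation p = 0.00202 and 0.0005). MX1 and MX2 had r = 0.80 and rho = 0.84 (permutation p = 0.00434 and 0.00371). Without the 2 animals farthest from the median of the first gene of a pair, r remained between 0.68 and 0.92 over the 6 pairs. The lowest of these was ISG15 and RSAD2, for which animals 7 and 8 were the 2 left out.

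Correlations were weaker and mixed in sign in the other groups. For ADLIB at Period 1, r was between -0.41 and 0.12 and 0 of 6 pairs passed. These values were sensitive to single animals, since without the 2 farthest animals they ran from -0.57 to 0.62, and MX1 and ISG15 went from -0.0015 to 0.62 (rho = 0.38 over all 10). In RES at Period 1 it was between -0.28 and 0.66 and 0 of 6 passed after adjustment, the highest being MX2 and RSAD2 at r = 0.66 and rho = 0.65 (permutation p = 0.0425 and 0.0497, adjusted p = 0.127, r = 0.66 without the 2 farthest animals). In ADLIB at Period 2 it was between -0.50 and 0.74, and 1 of 6 pairs passed. That pair was MX1 and ISG15, at r = 0.74 and rho = 0.88 (permutation p = 0.0132 and 0.00166, adjusted p = 0.0453 and 0.00797), with r = 0.93 without the 2 farthest animals. RSAD2 had a negative r with each of the other genes in ADLIB at Period 2, from -0.50 to -0.14, and none of these passed.

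**Figure D4:**
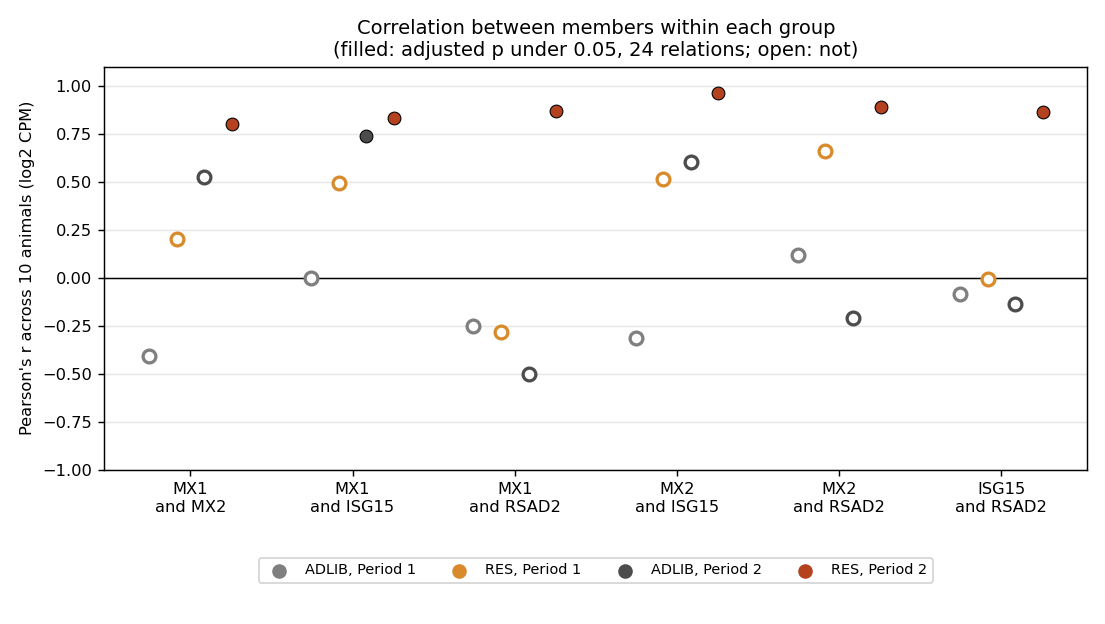
Pearson's r of log2 CPM across 10 animals for each of the 6 pairs of genes in each group, filled where the adjusted p over 24 pairs was under 0.05. All 6 points of RES at Period 2 lie between 0.80 and 0.96, and among the other groups only MX1 and ISG15 in ADLIB at Period 2 (0.74) is filled.

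The difference in r between groups was tested in 24 comparisons of pairs. Between RES and ADLIB at Period 2, the differences ran from 0.09 for MX1 and ISG15 to 1.37 for MX1 and RSAD2. With deviations from the group means shuffled between the groups, 4 of 6 passed (adjusted p = 0.0442 by permutation for each), namely all 3 pairs with RSAD2 and the pair MX2 and ISG15. When each deviation was first divided by the SD of its group, 0 of 6 passed, with a lowest adjusted p of 0.142, and without RES animals 7 and 8 0 of 6 passed, with a lowest adjusted p of 0.171 by exact permutation. Between the periods within RES, 1 of 6 passed by the first form, MX1 and RSAD2 at a difference of 1.15, and 0 by the second. The 2 remaining comparisons of groups, RES with ADLIB at Period 1 and the periods within ADLIB, gave 0 of 6 by either form. A higher correlation in RES at Period 2 than elsewhere was therefore not established across these forms of the test.

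Over all 40 animals, with group means removed, 5 of 6 pairs passed an adjusted p of 0.05 over 6 pairs, with r between 0.26 and 0.70, and 4 of 6 passed by Spearman's rho. ISG15 and RSAD2 passed by r alone (r = 0.44, permutation p = 0.0237, rho = 0.29, permutation p = 0.0948), and without the 2 animals farthest from the median of ISG15 its r was 0.23 (adjusted permutation p = 0.247). MX2 and ISG15 (r = 0.70, rho = 0.55, permutation p = 7e-05 and 0.00108) and MX1 and ISG15 (r = 0.68, rho = 0.72, permutation p = 5e-05 and 1e-05, the latter the smallest that these permutations can give) were the closest. No other gene of 11866 had as high an r with MX1 as ISG15 did, since 0% reached it. The pair that did not pass was MX1 and RSAD2, at r = 0.26 and rho = 0.12 (permutation p = 0.197 and 0.499). These pooled values depended on a single group. With RES at Period 2 left out, 0 of 6 pairs passed, r fell to 0.34 for MX2 and ISG15 and to 0.49 for MX1 and ISG15, and MX1 and RSAD2 turned to -0.36. With RES animals 7 and 8 of Period 2 left out, 3 of 6 passed.

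The joint variation can be followed animal by animal in RES at Period 2. Animal 8 had 152 normalised CPM of MX1, 12.6 of MX2, 68.7 of ISG15 and 27.9 of RSAD2. Animal 7 had 84.4, 14.6, 61.6 and 24.6 of the same genes, and animal 1 had 98.6, 6.30, 22.0 and 23.6. These 3 animals held the 3 highest places for every one of the 4 genes. At the other end, animal 6 had 4.85 of MX1, 1.52 of MX2, 3.90 of ISG15 and 11.4 of RSAD2, and was among the 3 lowest for every gene. Animals 3 and 4 were among the 3 lowest for 3 of the 4 genes each. The 4 remaining animals lay between them for most of the genes, for example animal 5 with 57.6 of MX1 and 16.6 of ISG15 and animal 9 with 44.0 and 11.6.

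Animals 7 and 8 did not stand apart in depth, with 10729455 and 10101655 reads on genes and 77.3% and 78.5% of reads on genes, within the group's ranges of 8656866 to 13282110 reads and 76.1% to 80.6%. Over all 40 animals, no relation of a gene's deviation to depth or to the percentage of reads on genes passed, the 8 values of r lying between -0.27 and 0.04 (permutation p adjusted over 8 relations = 0.922 for each). Within RES at Period 2, animals 4 and 3, among the 3 lowest for 3 genes each, had the most reads on genes (13282110 and 12751413). Animal 1, among the 3 highest for 4 genes, had the fewest (8656866), and animal 6, among the 3 lowest for 4 genes, had 10224037. A relation to depth within that group alone was not tested. Without animals 7 and 8, the remaining 8 RES animals still gave r between 0.68 and 0.89 for the 6 pairs, and 5 of 6 pairs passed (exact permutation test, adjusted over 6 pairs). The pair that did not pass was ISG15 and RSAD2, at r = 0.68 and rho = 0.76 (exact permutation p = 0.0642 and 0.0368). By rank, the pair with the lowest value was MX2 and RSAD2, at rho = 0.69 (exact permutation p = 0.0694).

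No ADLIB animal of Period 2 was among the 3 highest, or among the 3 lowest, for all 4 genes. Animal 2 came closest to the top, ranking 1 for MX2, 2 for ISG15 and for RSAD2, and 4 for MX1. Animal 3, the lowest for MX1 (7.68 normalised CPM) and for MX2 (1.36), was the highest for RSAD2 (20.1). Animal 10, the highest for MX1 (60.6) and second for MX2 (2.82), was the lowest for RSAD2 (11.3). Animal 6, the highest for ISG15 (16.3), was second for MX1 (54.7). In RES at Period 1, animal 7 was highest for MX1 (57.0), MX2 (7.77) and ISG15 (27.5), and ranked 4 for RSAD2.

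**Figure D5:**
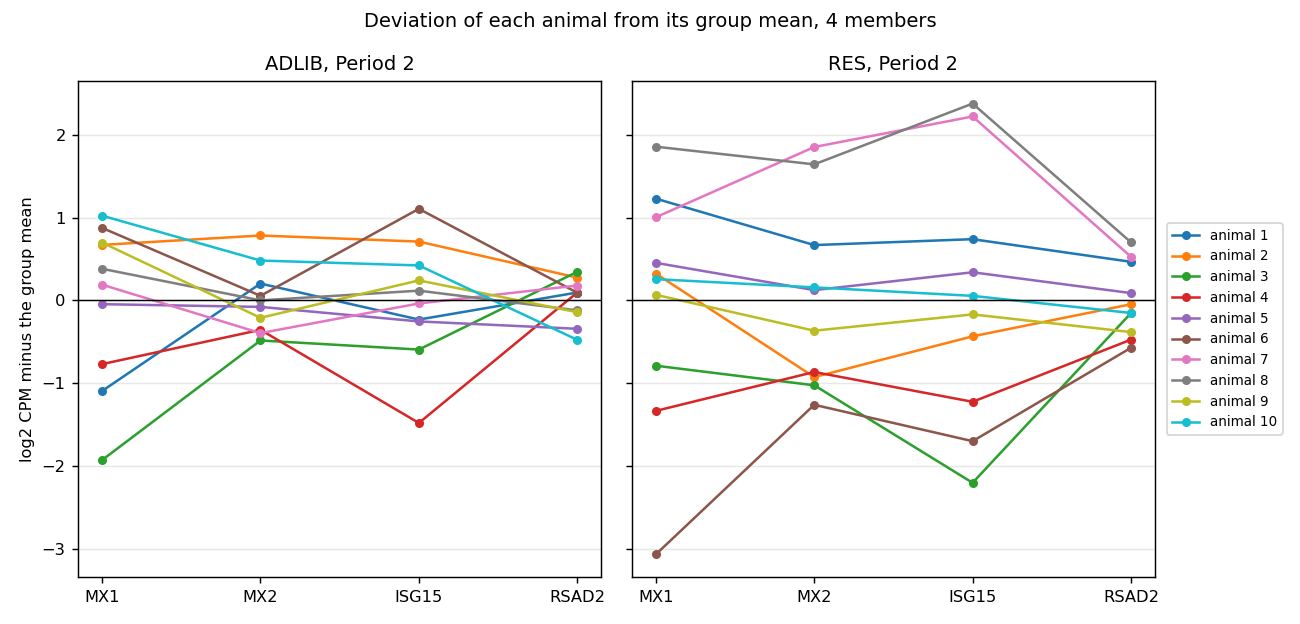
Log2 CPM of each animal minus its group mean for the 4 genes in ADLIB (left) and RES (right) at Period 2, with 1 line per animal. Lines in RES keep their order over most of the genes, with animals 8, 7 and 1 on top and animal 6 lowest or next to lowest, while lines in ADLIB cross between ISG15 and RSAD2.

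Other genes shared this pattern across animals. The measure of likeness was Pearson's r, over 40 animals with group means removed, with the mean of the standardised deviations of the 4 genes. Of 11864 other genes, 19 had an r of 0.7 or more (0.160%) and 0 had an r of -0.7 or less. The 4 most alike were ENSBTAG00000020536 at r = 0.81, ENSBTAG00000007881 at 0.80, and ENSBTAG00000019054 and ENSBTAG00000011511 at 0.78 each. They are named by identifier alone and were the most alike by selection, so no test is given. Without RES animals 7 and 8 of Period 2 their r was 0.67, 0.73, 0.65 and 0.66. By group, ENSBTAG00000020536 had r = 0.58 in ADLIB and 0.74 in RES at Period 1, and 0.85 and 0.87 at Period 2. For ENSBTAG00000007881, ENSBTAG00000019054 and ENSBTAG00000011511, r in ADLIB was 0.24, 0.13 and 0.49 at Period 1 and 0.61, 0.30 and 0.25 at Period 2. In RES it was 0.65, 0.72 and 0.83 at Period 1 and 0.96, 0.90 and 0.93 at Period 2. The genes were picked on these same animals, so the values by group are no separate evidence of likeness. Measured in the same way against the other 3 interferon-stimulated genes, ISG15 ranked 1 among 11864 genes (r = 0.76), MX2 7 (r = 0.75), MX1 124 (r = 0.56) and RSAD2 167 (r = 0.50).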

How the data were processed

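The authors sequenced single-end libraries of liver RNA, aligned the reads to the UMD3.1 bovine genome with TopHat and assigned those that mapped uniquely to Ensembl genes with HTSeq. The deposited values are these counts, not normalised. Their normalised tables were not used here. Diet and period, as the labels give them, defined the groups, each of 10 animals.

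The counts were tested with edgeR 4.0.16 (R 4.3.3; quasi-likelihood test, robust, TMM, genes with 4 or more reads in each animal of the fit, FDR by Benjamini-Hochberg over all genes tested, fold change of at least 1.25 except in the interaction). Log2 CPM used a prior count of 2. Correlations, SDs and their differences were tested with 100000 permutations, two-sided, or exactly where a group held 8 animals. The tests were first tried on simulated data. The 4 genes, the lists and the tests were chosen with earlier results of these data known, and the tests of differences in r and SD were added after the data had been seen. edgeR's exact test, DESeq2 1.42.0, limma 3.58.1, other filters and scalings, blocks and single left-out animals were alternatives. The text names the 4 genes and the 4 genes most like them. The reference table (ARS-UCD2.0) matched 0 of 24616 identifiers, so tests of a wider interferon list, of liver marker genes and of upstream motifs were not run.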

Additional observations from a re-analysis of the deposited data

How the results depend on the processing

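No gene of the 4 was called in any comparison, and this held under other settings except for MX2 and MX1. In RES against ADLIB at Period 2, DESeq2 called 1, edgeR's exact test 1, and the permutation test of each gene at an unadjusted p 1, in each case MX2. Leaving out single animals gave 0 to 1 called genes for RES against ADLIB at Period 1, 0 to 1 for the periods within RES, and 0 for the others, and 4 to 5 pairs past the threshold in the pooled correlations. ISG15 and RSAD2 was the pair lost, without RES animal 4, 6, 7 or 8 of Period 2 (r = 0.40, 0.38, 0.37 and 0.33), and it was also lost by Spearman's rho and without the 2 animals farthest from the median. The pooled count was 3 without RES animals 7 and 8 of Period 2 and 0 without that group. Signs turned without animals 7 and 8 for RSAD2 at Period 2 (-0.012), MX2 (-0.14) and ISG15 (-0.066) in the interaction, and MX2 (-0.27) and ISG15 (-0.32) between periods in RES. They turned for RSAD2 between periods in RES under total-count scaling (0.081) and single left-out animals (-0.10 to 0.047), for RSAD2 in the interaction with single animals left out (-0.14 to 0.0050), for MX1 between periods in ADLIB under total-count scaling (0.064) and single left-out animals (-0.19 to 0.054), and for RSAD2 there with a block for the number that opens the library name (-0.093) and with a covariate for the share of reads that fell on genes (-0.015). Without RES at Period 2 they turned for MX1 and RSAD2 (r = -0.36) and ISG15 and RSAD2 (r = -0.069). The cause was not tested. Total-count scaling moved the median log2 fold change of all genes by over 0.1 in 1 comparison, the periods within ADLIB, where it became 0.12. Depth limited MX2 most, with 7 to 170 reads.

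Animals of RES and ADLIB share the numbers 1 to 10 in the labels. The deviations of same-numbered animals correlated at over 0.1 in 4 of 10 pairs in each period. At Period 1, 4 of 10 ADLIB animals correlated best with the RES animal of their own number, and at Period 2 1 of 10 did. The mean r was 0.091 for the same number and -0.010 for other numbers at Period 1, and -0.0040 and 0.00052 at Period 2. These values do not settle whether the numbers pair the animals. The main tests used no block, and a block was run as an alternative. With a replicate block, 0 of the 4 genes were called in either period or in the interaction, and the Period 2 log2 fold changes were 1.03 for MX2 (FDR 0.381) and 0.88 for ISG15.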

Other observations

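Dixon's test was run on normalised CPM, in 16 sets of 10 values (4 genes in 4 groups). Neither the highest nor the lowest animal of any set passed its limit, so the count was 0 where chance gives about 0.8. It was not run on log2 CPM, the scale of the r and SD values, so the count does not cover that scale. In ADLIB at Period 1, the lowest animals were animal 5 for MX1 and animal 8 for MX2. Relative to the range, both lay farther from their neighbour on log2 CPM than on normalised CPM. The test compares an end animal with its neighbour, so it cannot flag 2 animals that lie together away from the rest. In RES at Period 2, for example, MX2 was 14.6 and 12.6 normalised CPM in animals 7 and 8, and 6.30 in the next, animal 1. The 16 sets also share animals between genes.

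More genes ran with the 4 interferon-stimulated genes than against them. Over 40 animals with group means removed, 168 of 11864 genes had an r of 0.5 or more with their mean and 84 had an r of -0.5 or less, and at 0.6 the counts were 57 and 3. Such counts were not made for other sets of 4 genes, so whether this is particular to these genes was not tested. Within RES at Period 2, 133 genes reached an r of 0.80 with MX2, 116 with ISG15, 89 with MX1 and 71 with RSAD2, from 1.12% of genes for MX2 to 0.598% for RSAD2, beside 0.592% over all pairs of genes in that group. The share for RSAD2 was thus near that over all pairs. In the same order of genes, the counts in ADLIB at Period 2 were 67, 69, 11 and 19 (0.0927% to 0.582% of genes), beside 0.692% of all pairs. In RES at Period 1 they were 115, 54, 54 and 33 (0.278% to 0.969%), beside 0.721% of all pairs. In ADLIB at Period 1 they were 32, 33, 58 and 66 (0.270% to 0.556%), beside 0.441% of all pairs. In these 3 groups only MX2 in RES at Period 1 and MX1 and RSAD2 in ADLIB at Period 1 were above the share over all pairs. These are descriptions over 10 animals with no test.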
